A study of Bos taurus with 9 samples.

Results

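Transcript levels of 10 genes were followed in cloned cattle embryos. Such embryos arise by somatic cell nuclear transfer (SCNT): a body cell's nucleus replaces the chromosomes of an egg. The genes are the transcription factors GATA2, GATA3, TFAP2A, TFAP2C and ELF3, the Hippo pathway factors TEAD1, TEAD4, YAP1 and WWTR1, and the Hippo target CCN2. They were chosen by name, with earlier results of these data known, and rows were joined between files by gene identifier. All 10 had a row in each of the 9 files, among 16129 genes present in all of them. CCN2 is filed under its older symbol CTGF. The YAP1 row (ENSBTAG00000039307.2) carries that symbol in the 8-cell files and none in the morula files. The row named TAZ is the tafazzin gene and was not used for WWTR1, whose protein is also called TAZ.

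The study asks what added KDM6A, a demethylase of lysine 27 of histone H3, does to such embryos, and 3 groups of 3 libraries were compared. KDM6A morulae developed from nuclear transfer embryos that received mRNA for wild-type bovine KDM6A by injection 1 h after activation. Control morulae developed from nuclear transfer embryos without injection. An effect of the injection itself and an effect of KDM6A therefore cannot be told apart between these groups. In both groups the donor cells were fibroblasts from a Holstein fetus, and each library came from a pool of 5 morulae collected on day 5. The 8-cell libraries are nuclear transfer embryos that, per the labels, belong to a different, older series, and stage and series of origin cannot be told apart wherever they enter. Whether pools within a group differ in day or oocyte batch is not stated in the labels. A p-value here reflects only how far these libraries spread, part of which may be technical.

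The trophectoderm is the outer epithelium of the blastocyst and the source of the placenta. In the mouse, Hippo signalling through the kinases LATS1 and LATS2 keeps the coactivators YAP1 and WWTR1 out of the nucleus of inner cells. In outer cells the pathway is low, and YAP1 and WWTR1 join the DNA-binding factor TEAD4 to switch on trophectoderm genes, GATA3 among them. GATA2, GATA3, TFAP2A, TFAP2C and ELF3 are DNA-binding factors known from trophectoderm, placenta or other epithelia. Hippo signalling acts largely on the place and the amount of protein, neither of which was measured here.

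Values are FPKM, fragments counted per gene divided by transcript length and library total, which allow levels to be compared between genes. Summed FPKM ran from 820346 to 989916 per library, 8923 to 9757 genes reached 1 FPKM, and sequencing depth is unknown. The KDM6A transcript was at 35.65, 87.58 and 79.44 FPKM in KDM6A morulae, against 10.72, 13.86 and 10.74 FPKM in control morulae and 6.13, 9.41 and 10.73 FPKM in 8-cell embryos. KDM6A replicate 1 thus held the lowest KDM6A level of its group. Summed over 14 inner cell mass and pluripotency markers, KDM6A morulae held 1267 to 1480 FPKM, control morulae 1041 to 1384 and 8-cell embryos 579 to 1141. The sum over 14 oocyte markers was 531 to 705 FPKM in KDM6A morulae and 407 to 1149 in control morulae, against 5902 to 14750 in 8-cell embryos. Summed donor fibroblast markers, 21 genes, were at 1010 to 1097 FPKM in KDM6A morulae and 852 to 1091 in control morulae, carried by SPARC, TIMP1 and FN1, against 67.8 to 119 in 8-cell embryos. The collagen gene COL1A1 stayed at or below 1.17 FPKM in the 6 morula libraries and stood at 5.09 FPKM in 8-cell replicate 2. Among the 8-cell libraries that one also had the highest GATA2, GATA3, TFAP2A, TFAP2C, TEAD1 and YAP1 and the lowest TEAD4 and CCN2. It held the highest oocyte (14750 FPKM) and fibroblast (119) sums and the lowest inner cell mass sum (579) of that group. Single markers did differ between KDM6A and control morulae although the sums overlapped. Of 11 testable fibroblast markers TPM2, a tropomyosin, rose, at 56.77, 66.49 and 60.51 FPKM in KDM6A morulae against 29.36, 17.23 and 20.37 FPKM in control morulae (limma adjusted p = 0.0213), a call lost in 7 of 16 alternatives. At an unadjusted p under 0.05, 4 of the 11 were higher (TPM2, TIMP1, MMP2 and ACTA2) and 1 lower (FN1). The same counts were 2 higher and 0 lower of 11 inner cell mass markers, 1 and 1 of 3 primitive endoderm markers, and 0 and 0 of 10 oocyte markers. The lower primitive endoderm marker, APOA1, reached 1 FPKM in control libraries alone and entered the test only through them. Among all tested genes 6.31% were higher and 6.41% lower at that p. The part of these marker levels in the results below was not tested, and in pooled embryos fewer cells with a transcript and less transcript per cell cannot be told apart.

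**Figure D1:**
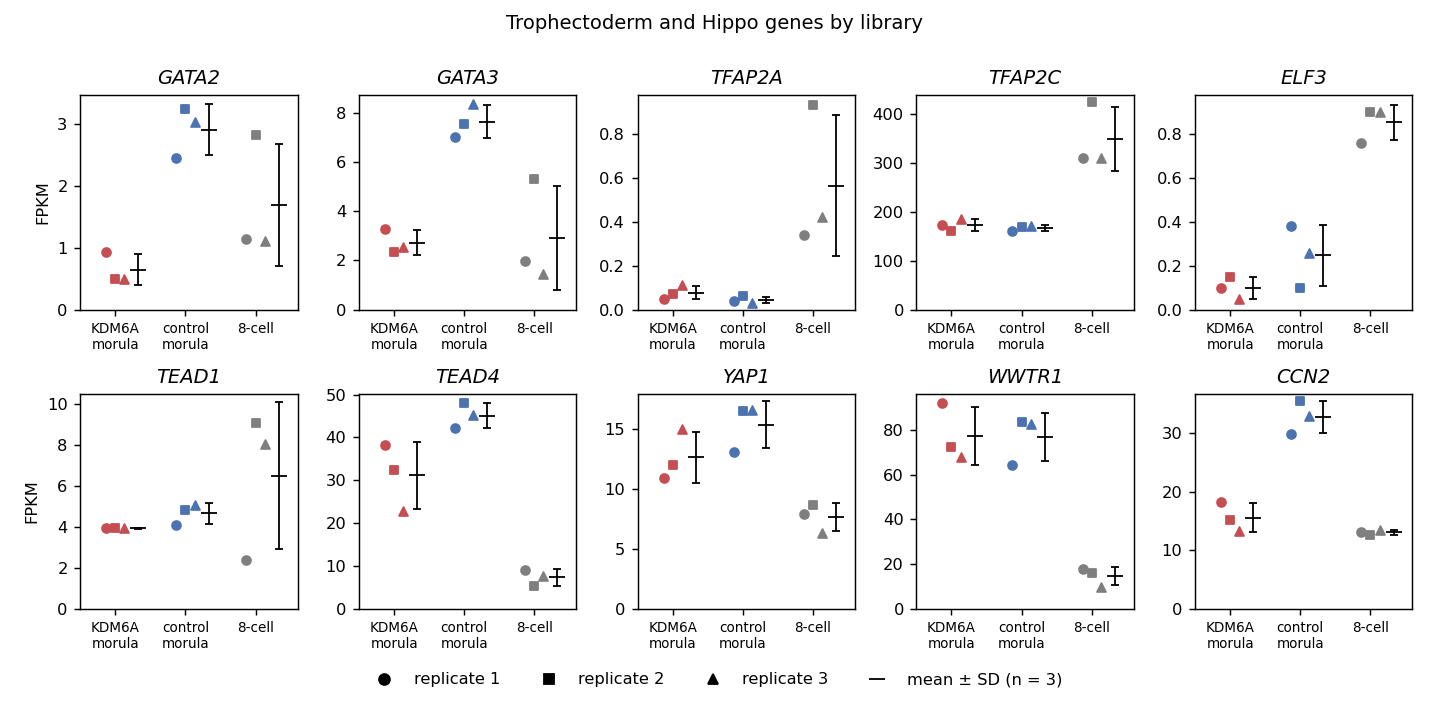
FPKM of each of the 10 genes (vertical axis, a scale per panel) in the 3 libraries of each group, with points for libraries, shapes for replicate numbers and a bar for the mean ± SD (n = 3). GATA2, GATA3, TEAD1, TEAD4 and CCN2 lie wholly below the control morulae in KDM6A morulae. TEAD4 and WWTR1 lie far above the 8-cell embryos in both kinds of morula.

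The first comparison asks whether these genes differ between KDM6A morulae and control morulae. GATA2, GATA3 and CCN2 were each at less than the lowest control value in every KDM6A library, with mean levels 4.51-fold, 2.81-fold and 2.11-fold lower. None of the 8 testable genes passed an adjusted p of 0.05 (limma, Benjamini-Hochberg over 9777 genes), a threshold that 0.164% of all tested genes passed, 0.123% higher and 0.0409% lower. GATA2 reached 1 FPKM in control libraries alone, so it entered the test only because it is high there, and it is left out of the counts that follow. At an unadjusted p under 0.05, 3 of the other 7 genes were on the lower side, GATA3, TEAD4 and CCN2, and 0 on the higher side. At that p 6.41% of all tested genes were lower and 6.31% higher. Among genes that reached 1 FPKM in libraries of both groups the shares were 6.22% and 6.06%. Of the 7, 4 lay wholly below the controls and 0 wholly above. Among all tested genes 8.61% lay wholly below and 7.1% wholly above, and among those reached in both groups 8.33% and 6.79%. The log2 fold changes of the 7 had a median of -0.27, beside -0.012 for all tested genes, and 5 were negative. Because earlier results were known when the genes were chosen, these counts and this median are descriptions and no test of the set. TFAP2A and ELF3 did not reach 1 FPKM in 3 of the 6 libraries and were not tested.

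GATA2 (ENSBTAG00000019707.5), a zinc finger factor, was at 0.93, 0.5 and 0.5 FPKM in KDM6A morulae, against 2.44, 3.24 and 3.02 FPKM in control morulae. The groups did not overlap, and no KDM6A library reached 1 FPKM. The log2 fold change was -1.25 (SE 0.216) and is given as a description, with no test. GATA3 (ENSBTAG00000017243.5), its close relative, was at 3.29, 2.33 and 2.56 FPKM in KDM6A morulae, against 7.04, 7.56 and 8.35 FPKM in control morulae. The gap between the groups, from 3.29 to 7.04 FPKM, was wider than the range within either. The log2 fold change was -1.22 (SE 0.207, 95% interval -1.68 to -0.76, adjusted p = 0.0561). For GATA3 alone, as for every gene whose 3 and 3 values do not overlap, the exact two-sided permutation p was 0.1, the smallest this design allows.

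The AP-2 family gave the highest and one of the lowest levels of the set, with no call for TFAP2C and TFAP2A too low to test. TFAP2C (ENSBTAG00000002065.3), the AP-2 factor known from mouse trophectoderm, was at 172, 161.43 and 184.51 FPKM in KDM6A morulae, against 160.66, 168.1 and 170.95 FPKM in control morulae. The groups overlapped, and the log2 fold change was 0.050 (95% interval -0.26 to 0.36, adjusted p = 0.907). TFAP2A (ENSBTAG00000001250.5) was at 0.05, 0.07 and 0.11 FPKM in KDM6A morulae and at 0.04, 0.06 and 0.03 in control morulae. ELF3 (ENSBTAG00000008756.5), an ETS factor of epithelia, was at 0.1, 0.15 and 0.05 FPKM in KDM6A morulae and at 0.38, 0.1 and 0.26 in control morulae. Both stayed near the lower end of the measured range, where the 2 decimals of the files limit any comparison.

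Of the TEAD factors, which carry YAP1 and WWTR1 to DNA, TEAD4 was the more abundant. TEAD4 (ENSBTAG00000019788.5) was at 38.18, 32.49 and 22.7 FPKM in KDM6A morulae, against 42.27, 47.95 and 45.16 FPKM in control morulae. The KDM6A libraries lay below the controls and spread more widely, with a mean of 31.1 ± 7.83 FPKM against 45.1 ± 2.84 (SD, n = 3 each). The log2 fold change was -0.55 (SE 0.208, 95% interval -1.01 to -0.092, adjusted p = 0.320). TEAD1 (ENSBTAG00000032657.3) was at 3.93, 3.92 and 3.95 FPKM in KDM6A morulae, against 4.08, 4.81 and 5.08 FPKM in control morulae. These groups did not overlap either, but the gap was narrow, from 3.95 to 4.08 FPKM, and the log2 fold change of -0.19 had an interval that spans 0 (-0.63 to 0.24, adjusted p = 0.709).

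The coactivators showed no call. YAP1 was at 10.92, 11.97 and 15.02 FPKM in KDM6A morulae, against 13.07, 16.48 and 16.54 FPKM in control morulae. The groups overlapped, with a log2 fold change of -0.27 (95% interval -0.72 to 0.18, adjusted p = 0.599). WWTR1 (ENSBTAG00000007814.5) was at 92, 72.42 and 67.85 FPKM in KDM6A morulae, against 64.3, 83.62 and 82.62 FPKM in control morulae. The means, 77.4 ± 12.8 and 76.9 ± 10.9 FPKM, differed by less than the spread within either group, and the log2 fold change was 0.0083 (95% interval -0.39 to 0.41, adjusted p = 0.988). The interval excludes a change of WWTR1 as large as those fitted for GATA3 and CCN2 in these libraries.

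CCN2 (ENSBTAG00000006367.5) codes for a secreted matrix protein and is a much used readout of YAP and TEAD activity in human and mouse cells. It was at 18.25, 15.16 and 13.31 FPKM in KDM6A morulae, against 29.95, 35.47 and 32.96 FPKM in control morulae. The groups were far apart for their spread, with 15.6 ± 2.50 FPKM against 32.8 ± 2.76 (SD, n = 3 each). The log2 fold change was -1.04 (SE 0.188, 95% interval -1.45 to -0.62, adjusted p = 0.0669). By unadjusted p, GATA3 and CCN2 ranked at places 20 and 30 of the 9777 tested genes, past the 16 that were called.

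**Figure D2:**
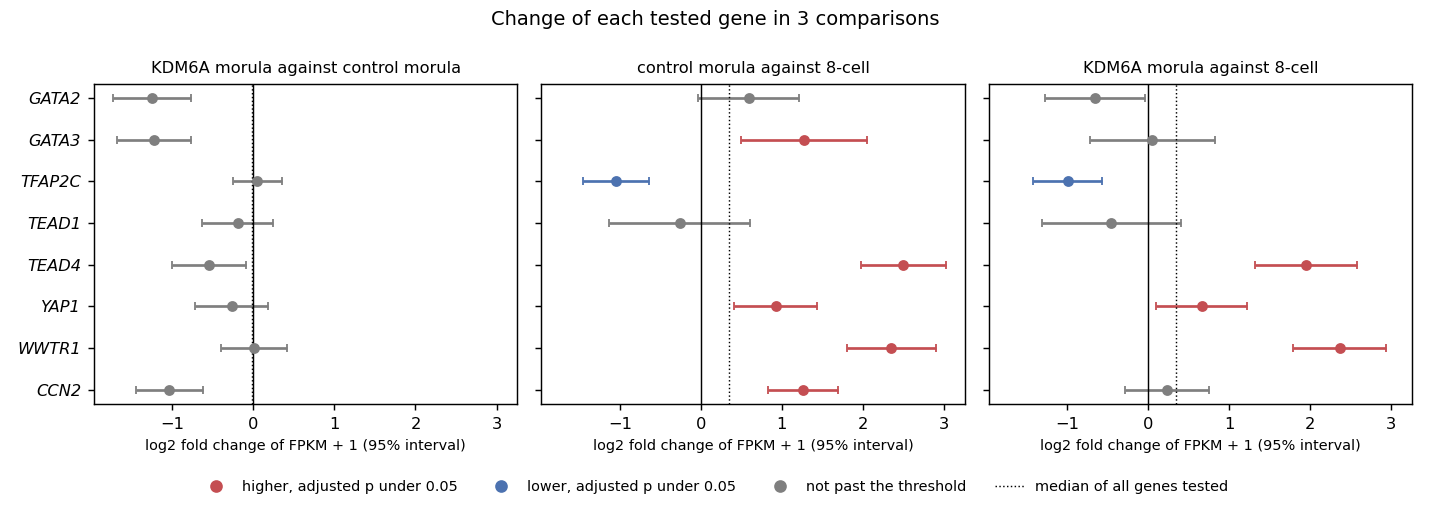
Log2 fold change on the log2(FPKM + 1) scale with its 95% interval (horizontal axis) for the 8 testable genes in the 3 comparisons, with a dotted line at the median of all tested genes, red for higher and blue for lower at an adjusted p under 0.05. In KDM6A against control morulae the GATA3, TEAD4 and CCN2 intervals lie below 0, as does that of GATA2, which entered the fit through its control libraries alone, and the WWTR1 interval is centred near 0.

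Whether any of these genes was called changed when 1 library was left out, with weights per library and with quantile normalization. Without KDM6A replicate 1, the library with the lowest KDM6A transcript, GATA3 (adjusted p = 0.00837) and CCN2 (0.00899) were lower. Leaving that library out also brought the calls on the lower side to 3.73% of all tested genes. In that library GATA2, GATA3, TEAD4 and CCN2 were each at their highest level among the KDM6A morulae, as was WWTR1, while YAP1 was at its lowest. Whether these levels go with the KDM6A level of that library was not tested. Quantile normalization called GATA3 (adjusted p = 0.0446), beside 0.0923% of all tested genes on the lower side. Weights per library, which put 3.36 on KDM6A replicate 2 and 0.344 on KDM6A replicate 1, called GATA3, TEAD4 and CCN2, beside 11.1% of all tested genes on the lower side. GATA2 also passed under these 3 settings, again through its control libraries. The fold changes themselves kept their sign in all 16 alternatives, at -2.05 to -1.19 for GATA2, -1.47 to -1.14 for GATA3, -1.15 to -0.93 for CCN2 and -0.71 to -0.35 for TEAD4.

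**Figure D3:**
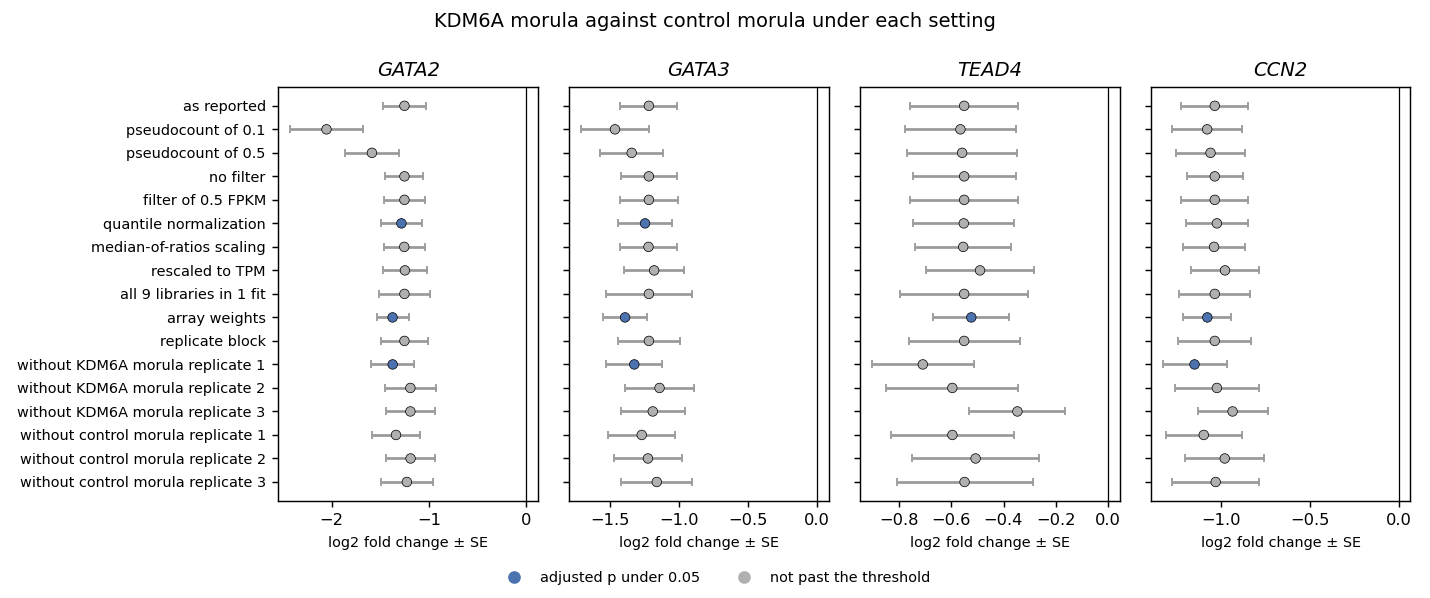
Log2 fold change of GATA2, GATA3, TEAD4 and CCN2 in KDM6A against control morulae under the 17 settings run, as reported and 16 alternatives. Points are estimates with their SE as bars, and blue points mark an adjusted p under 0.05. Each point lies below 0. GATA2 entered the test through its control libraries alone, and calls occur without KDM6A replicate 1, with array weights and, for GATA2 and GATA3, with quantile normalization.

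Levels relative to a close relative were set side by side within each library, where the scaling of the library cancels. GATA3 stood at 3.54 to 5.12 times GATA2 in KDM6A morulae, at 2.33 to 2.89 times in control morulae and at 1.31 to 1.89 times in 8-cell embryos. The 3 groups did not overlap, and the KDM6A values include GATA2 levels under 1 FPKM. TEAD4 stood at 5.75 to 9.72 times TEAD1 in KDM6A morulae and at 8.89 to 10.4 times in control morulae, which overlap, against 0.575 to 3.77 times in 8-cell embryos. WWTR1 stood at 4.52 to 8.42 times YAP1 in KDM6A morulae and at 4.92 to 5.07 times in control morulae, against 1.56 to 2.26 times in 8-cell embryos. The ratio of WWTR1 to YAP1 was thus nearly the same in the 3 control libraries and spread in the KDM6A libraries on both sides of them.

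**Figure D4:**
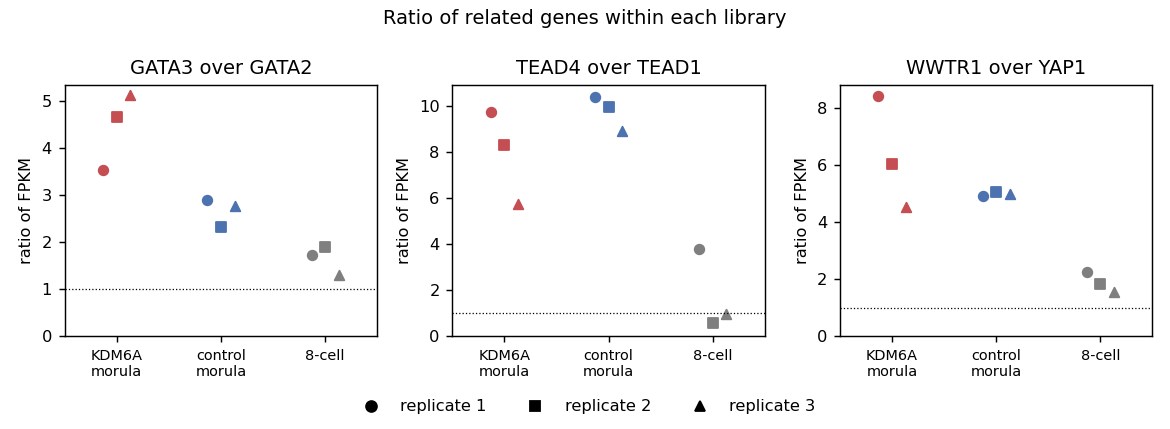
Ratio of FPKM within each library for GATA3 over GATA2, TEAD4 over TEAD1 and WWTR1 over YAP1, by group, with a dotted line at a ratio of 1. Shapes mark replicates. The GATA3 ratio is highest in KDM6A morulae at a median of 4.66, and the TEAD4 and WWTR1 ratios are higher in both kinds of morula than in 8-cell embryos.

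The order of the mean levels was nearly the same in both kinds of morula. In KDM6A morulae TFAP2C was highest, above 95% of all genes, followed by WWTR1 (90.8%), TEAD4 (83.4%), CCN2, YAP1, TEAD1, GATA3 (50.8%), GATA2 (36.3%), ELF3 and TFAP2A. CCN2 and YAP1 overlapped there, as did ELF3 and TFAP2A. In control morulae the order was TFAP2C (94.6%), WWTR1 (90.8%), TEAD4 (86.7%), CCN2, YAP1, GATA3 (65.4%), TEAD1, GATA2 (52.1%), ELF3 and TFAP2A, and no neighbours overlapped. GATA3 was thus below TEAD1 in KDM6A morulae and above it in control morulae. In 8-cell embryos TFAP2C, above 97.5% of genes, was again highest, WWTR1 and CCN2 overlapped in the next places, and YAP1, TEAD4, TEAD1 and GATA3 each overlapped the next gene down, as far as GATA2.

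The stage comparison sets control morulae against 8-cell embryos. Of the 8 tested genes 5 rose, GATA3, TEAD4, YAP1, WWTR1 and CCN2, and 1 fell, TFAP2C. Calls were common here, at 42.7% higher and 27.1% lower of 10048 tested genes, so the count for these genes is read against that (69.8% in either direction). The same 6 genes were called in all 16 alternatives. Their 8 fold changes had a median of 1.09, beside 0.35 for all tested genes. That general shift was 0.042 with quantile normalization and 0.097 with median-of-ratios scaling, and it is drawn as the dotted line in the plot of fold changes.

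TEAD4 and WWTR1 rose the most. TEAD4 was at 42.27, 47.95 and 45.16 FPKM in control morulae, against 9.01, 5.23 and 7.66 FPKM in 8-cell embryos, a 6.18-fold difference (log2 fold change 2.50, SE 0.233, adjusted p = 1.46e-05). WWTR1 was at 64.3, 83.62 and 82.62 FPKM in control morulae, against 17.89, 15.89 and 9.89 FPKM in 8-cell embryos, a 5.28-fold difference (log2 fold change 2.35, SE 0.248, adjusted p = 2.87e-05). Each control value of both genes was more than 3 times the highest 8-cell value. YAP1, the partner of WWTR1, rose less, at 13.07, 16.48 and 16.54 FPKM in control morulae against 7.9, 8.66 and 6.33 FPKM in 8-cell embryos (2.01-fold, log2 fold change 0.93, SE 0.229, adjusted p = 0.00472). TEAD1 was at 4.08, 4.81 and 5.08 FPKM in control morulae, inside the 8-cell range of 2.39, 9.09 and 8.03 FPKM. Its fold change of -0.26 was poorly determined (95% interval -1.13 to 0.61, adjusted p = 0.566). Without 8-cell replicate 1, the library with the low value, TEAD1 was lower in control morulae (-0.76, adjusted p = 0.0208), and without 8-cell replicate 2 the sign turned (0.028).

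CCN2 rose 2.51-fold, at 29.95, 35.47 and 32.96 FPKM in control morulae against 13.12, 12.64 and 13.43 FPKM in 8-cell embryos (log2 fold change 1.26, SE 0.194, adjusted p = 0.00027). GATA3 was at 7.04, 7.56 and 8.35 FPKM in control morulae, against 1.96, 5.33 and 1.44 FPKM in 8-cell embryos (log2 fold change 1.27, SE 0.347, adjusted p = 0.00805). The 5.33 FPKM belongs to 8-cell replicate 2, the 8-cell library with the highest oocyte and fibroblast marker sums and the lowest inner cell mass sum. GATA2 showed the same high library, with 2.44, 3.24 and 3.02 FPKM in control morulae and 1.13, 2.82 and 1.1 FPKM in 8-cell embryos. Its groups overlapped and its log2 fold change of 0.59 was not called (SE 0.279, adjusted p = 0.0819). Without 8-cell replicate 2 it was called (adjusted p = 0.00856), as it was with array weights (0.0236).

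TFAP2C, the most abundant of the set, fell 2.09-fold, at 160.66, 168.1 and 170.95 FPKM in control morulae against 310.73, 425.48 and 310.12 FPKM in 8-cell embryos (log2 fold change -1.05, SE 0.184, adjusted p = 0.000618). TFAP2A and ELF3, untested, lay below the 8-cell embryos in every control library. TFAP2A was at 0.0433 ± 0.0153 FPKM in control morulae against 0.563 ± 0.320 in 8-cell embryos, and ELF3 at 0.247 ± 0.141 against 0.853 ± 0.0808 (SD, n = 3 each). Of the 8 tested genes, 1 lay wholly below the 8-cell embryos and 5 wholly above, where 29.1% of all tested genes lay wholly below and 45.4% wholly above.

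KDM6A morulae were set against the same 8-cell libraries, so the 2 stage comparisons are not independent of each other, and each shares its morulae with the first comparison. Of the 8 tested genes 3 rose in KDM6A morulae, TEAD4, WWTR1 and YAP1, and 1 fell, TFAP2C, where 41.1% of 10024 tested genes were higher and 25.6% lower (66.7% in either direction). GATA2 entered this test through the 8-cell libraries alone. Of the other 7, 3 lay wholly above the 8-cell embryos and 1 wholly below, beside 43.2% and 28.2% of all tested genes. Among genes that reached 1 FPKM in libraries of both groups the shares were 40.1% and 26.8%. The median log2 fold change of the 7 was 0.23, beside 0.34 for all tested genes and 0.29 for those reached in both groups. TFAP2A and ELF3, untested, lay wholly below. TEAD4 was 4.26-fold higher (log2 fold change 1.95, SE 0.284, adjusted p = 0.000149), and WWTR1 was 5.32-fold higher (2.36, SE 0.261, adjusted p = 2.38e-05). TFAP2C fell to 173 ± 11.6 FPKM in KDM6A morulae, against 349 ± 66.4 in 8-cell embryos (log2 fold change -0.996, adjusted p = 0.000881). The calls of TEAD4, WWTR1 and TFAP2C held in all 16 alternatives. YAP1 was at 12.6 ± 2.13 FPKM in KDM6A morulae against 7.63 ± 1.19 in 8-cell embryos (log2 fold change 0.66, SE 0.254, adjusted p = 0.0396). The YAP1 call was lost with quantile normalization (adjusted p = 0.259), median-of-ratios scaling (0.177), rescaling to TPM (0.0775) and the replicate block (0.0614). It was also lost without KDM6A replicate 2 (0.0996), KDM6A replicate 3 (0.146), 8-cell replicate 1 (0.0579) or 8-cell replicate 3 (0.116).

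GATA3 and CCN2, which rose in control morulae, had no call in KDM6A morulae against 8-cell embryos. GATA3 averaged 2.73 ± 0.501 FPKM in KDM6A morulae and 2.91 ± 2.11 FPKM in 8-cell embryos, with overlap (log2 fold change 0.051, 95% interval -0.72 to 0.83, adjusted p = 0.906). CCN2 averaged 15.6 ± 2.50 FPKM in KDM6A morulae and 13.1 ± 0.398 FPKM in 8-cell embryos (log2 fold change 0.23, 95% interval -0.29 to 0.74, adjusted p = 0.412). The GATA3 interval is wide, with 8-cell values of 1.96, 5.33 and 1.44 FPKM, and includes changes in both directions. GATA2 was at 0.93, 0.5 and 0.5 FPKM in KDM6A morulae, below 8-cell embryos at 1.13, 2.82 and 1.1 FPKM. Its log2 fold change of -0.66 (SE 0.278) is given as a description, since no KDM6A library reached 1 FPKM. TEAD1 had a log2 fold change of -0.45 and an adjusted p of 0.32. The difference between the 2 kinds of morula in these genes is the first comparison itself, where GATA3 and CCN2 did not pass the threshold.

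The rest of the pathway was described from lists of related genes. Of 35 Hippo kinases, scaffolds and upstream regulators, 27 could be tested between KDM6A and control morulae. None was called, and the median log2 fold change was 0.053, beside -0.012 for all tested genes. At an unadjusted p under 0.05 (limma), 0 were higher and 3 lower, beside 6.31% and 6.41% of all tested genes. The 3 were WWC2, WWC1 and AMOTL2, scaffolds that act upstream of LATS kinases or bind YAP1. WWC2 was at 7.11, 4.06 and 4.05 FPKM in KDM6A morulae, against 7.12, 10.44 and 11.81 FPKM in control morulae (adjusted p = 0.283). WWC1 was at 6.5, 4.12 and 3.1 FPKM in KDM6A morulae, against 6.71, 9.65 and 9.81 FPKM in control morulae (adjusted p = 0.283). In both, KDM6A replicate 1 stood close to control replicate 1, and both were called lower without KDM6A replicate 1. AMOTL2 was at 7.3, 6.82 and 5.2 FPKM in KDM6A morulae, against 7.55, 10.49 and 10.66 FPKM in control morulae (adjusted p = 0.38). The kinases TAOK2, LATS1 and STK4, next by p, were at 2.36 ± 0.716, 2.73 ± 1.13 and 8.65 ± 2.30 FPKM in KDM6A morulae, against 1.40 ± 0.271, 1.65 ± 0.315 and 6.26 ± 1.41 FPKM in control morulae, with no call.

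Between control morulae and 8-cell embryos, 12 of these 27 Hippo genes rose and 6 fell, with a median of 0.34. These are close to the 42.7% higher and 27.1% lower of all tested genes and to their median of 0.35. Of the 12, 5 were under 1 FPKM in every 8-cell library (AMOTL1, AMOTL2, MAP4K4, TAOK2 and WWC1) and so entered the test only through the morulae. For such genes, in every list, values are given without a p. Quantile normalization gave 10 and 6 of 26. The scaffold AMOTL2 was at 9.57 ± 1.75 FPKM in control morulae and is listed at 0 in the 3 8-cell libraries. WWC1 was at 8.72 ± 1.75 FPKM in control morulae against 0.747 ± 0.0874 in 8-cell embryos. YWHAQ, a 14-3-3 protein of the family that holds phosphorylated YAP1 in the cytoplasm, was at 387 ± 43.4 FPKM in control morulae against 92.8 ± 21.2 in 8-cell embryos (adjusted p = 2.45e-05). On the lower side stood parts of the kinase core. MOB1A, a cofactor of LATS kinases, was at 15.3 ± 6.20 FPKM in control morulae against 91.1 ± 14.1 in 8-cell embryos (adjusted p = 3.08e-05), and STK4 at 6.26 ± 1.41 against 29.5 ± 4.27 (adjusted p = 4.57e-05). In KDM6A morulae against 8-cell embryos, 10 rose and 5 fell of 27, beside 41.1% and 25.6% of all tested genes, and 4 of the 10 entered through the morulae alone.

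Other partners and targets were mostly too low to test. Of 6 further TEAD family members and cofactors, 3 could be tested between KDM6A and control morulae, with no call and none at an unadjusted p under 0.05. TEAD3 was at 4.03, 2.88 and 2.74 FPKM in KDM6A morulae, against 3.11, 4.55 and 2.56 FPKM in control morulae. In the stage comparison it was at 3.41 ± 1.03 FPKM in control morulae against 0.53 ± 0.0854 in 8-cell embryos, where no library reached 1 FPKM. VGLL4, which competes with YAP1 for TEAD proteins, fell to 1.05 ± 0.550 FPKM in control morulae, against 3.73 ± 1.85 in 8-cell embryos (adjusted p = 0.00774).

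The list of 21 YAP and TEAD targets, known from human and mouse cells, held 8 testable genes between KDM6A and control morulae. None was called by limma, 1 was higher and 1 lower at an unadjusted p under 0.05 (6.31% and 6.41% of all tested genes), and the median log2 fold change was 0.15. CCN1, the closest relative of CCN2 in the list, lay on the other side of the controls, at 5.87, 6.07 and 5.95 FPKM in KDM6A morulae against 4.44, 4.81 and 3.91 FPKM in control morulae (log2 fold change 0.37, adjusted p = 0.443). GADD45B was at 8.23, 8.79 and 5.2 FPKM in KDM6A morulae, against 5.43, 3.24 and 4.27 FPKM in control morulae (adjusted p = 0.324). Of the 8 target genes, 6 had a fold change above 0 and 2 below. In control morulae against 8-cell embryos, 3 were higher and 3 lower of 10 tested, beside 42.7% and 27.1% of all tested genes. AMOTL2, CCN1 and NUAK2 among them reached 1 FPKM in a single group. CCN1 was at 4.39 ± 0.452 FPKM in control morulae against 0.207 ± 0.0737 in 8-cell embryos. DLC1 rose and F3 and GADD45B fell, and F3, tissue factor, was at 4.90 ± 3.16 FPKM in control morulae against 31.2 ± 9.94 in 8-cell embryos (adjusted p = 0.00021). The GADD45B call was lost in 6 alternatives, and quantile normalization gave 3 higher and 5 lower of 11.

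Other transcription regulators of trophectoderm and placenta, 35 listed and 14 testable between KDM6A and control morulae, included no call. At an unadjusted p under 0.05, 4 were lower and 0 higher (limma), beside 6.41% and 6.31% of all tested genes. The median log2 fold change was -0.29, beside -0.012 for all tested genes. MSX2, a homeobox factor, was at 13.86, 4.37 and 3.68 FPKM in KDM6A morulae, against 16.85, 16.72 and 17.36 FPKM in control morulae (adjusted p = 0.251), and was called lower without KDM6A replicate 1. Its KDM6A replicates 2 and 3 lay below KDM6A replicate 1, and all 3 lay below the controls. GRHL1, an epithelial factor, was at 3.15, 1.25 and 2.73 FPKM in KDM6A morulae, against 3.26, 8.09 and 6.53 FPKM in control morulae (adjusted p = 0.283). TFCP2L1 was at 2.06 ± 0.763 FPKM in KDM6A morulae against 3.59 ± 0.374 in control morulae (adjusted p = 0.324). KLF5, a zinc finger factor needed for trophectoderm in the mouse, was at 69.6 ± 8.27 FPKM in KDM6A morulae against 95.4 ± 20.0 in control morulae (adjusted p = 0.384). Of the other GATA factors and their cofactors, 3 of 9 could be tested and none was called, and none reached an unadjusted p under 0.05. GATA6, a primitive endoderm factor, was at 6.01, 10.46 and 9.46 FPKM in KDM6A morulae, against 6.12, 7.57 and 2.9 FPKM in control morulae (adjusted p = 0.436).

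Between control morulae and 8-cell embryos, 7 of 15 tested regulators were called higher and 8 lower, beside 42.7% and 27.1% of all tested genes. GRHL1 and TFCP2L1 of the 7 and EOMES of the 8 reached 1 FPKM in a single group. EOMES, a T-box factor of mouse trophoblast, was at 0.00667 ± 0.0115 FPKM in control morulae against 7.31 ± 2.31 in 8-cell embryos. TFAP2B, an AP-2 relative of TFAP2C, fell to 0.85 ± 0.911 FPKM in control morulae, against 25.9 ± 6.82 in 8-cell embryos (adjusted p = 1.29e-05). NR2F2 and ID2 also fell. GATA6, from the list of other GATA factors and not one of the 15, fell to 5.53 ± 2.39 FPKM in control morulae against 27.8 ± 6.69 in 8-cell embryos (limma adjusted p = 0.000201). ESRRB, a nuclear receptor of mouse trophoblast and pluripotent cells, rose to 33.5 ± 5.89 FPKM in control morulae, against 5.16 ± 2.06 in 8-cell embryos (adjusted p = 4.99e-05). One of the 7, OVOL2, lost its call in 10 of 16 alternatives. In KDM6A morulae against 8-cell embryos, 6 of 16 were called higher and 7 lower, beside 41.1% and 25.6% of all tested genes, with NR2F2 and ID2 again on the lower side. EOMES, TFAP2B, GRHL1 and TFCP2L1 among the 13 reached 1 FPKM in a single group.

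Products of the trophectoderm epithelium (keratins, junction proteins, transporters and enzymes among them) lay on both sides of the control values in KDM6A morulae. Of 35 listed, 26 could be tested, none was called, and at an unadjusted p under 0.05 (limma) 6 were higher and 3 lower, beside 6.31% and 6.41% of all tested genes, with a median log2 fold change of 0.068. PTGES, a prostaglandin E synthase, was at 218.01, 172.59 and 169.24 FPKM in KDM6A morulae, against 101.42, 123.61 and 105.03 FPKM in control morulae (adjusted p = 0.113). CDH1, the E-cadherin of epithelial junctions, was at 67.94, 93.4 and 79.38 FPKM in KDM6A morulae, against 53.56, 51.1 and 43.72 FPKM in control morulae (adjusted p = 0.211). DAB2, an endocytic adaptor, was on the lower side at 49.45, 41.52 and 52.87 FPKM in KDM6A morulae, against 71.04, 63.83 and 85.08 FPKM in control morulae (adjusted p = 0.279). Between control morulae and 8-cell embryos 17 of 25 were called higher and 3 lower, beside 42.7% and 27.1% of all tested genes. In KDM6A morulae against 8-cell embryos 19 of 25 were higher and 2 lower, beside 41.1% and 25.6%. In each comparison 4 of the higher calls, KRT8, KRT18 and CLDN4 among them, were genes under 1 FPKM in every 8-cell library. The keratin KRT18 was at 34.2 ± 16.6 FPKM in KDM6A morulae and 46.6 ± 17.7 in control morulae, against 0.253 ± 0.191 in 8-cell embryos. LGALS3 and PLAC8 matched several rows each and were left out.

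**Figure D5:**
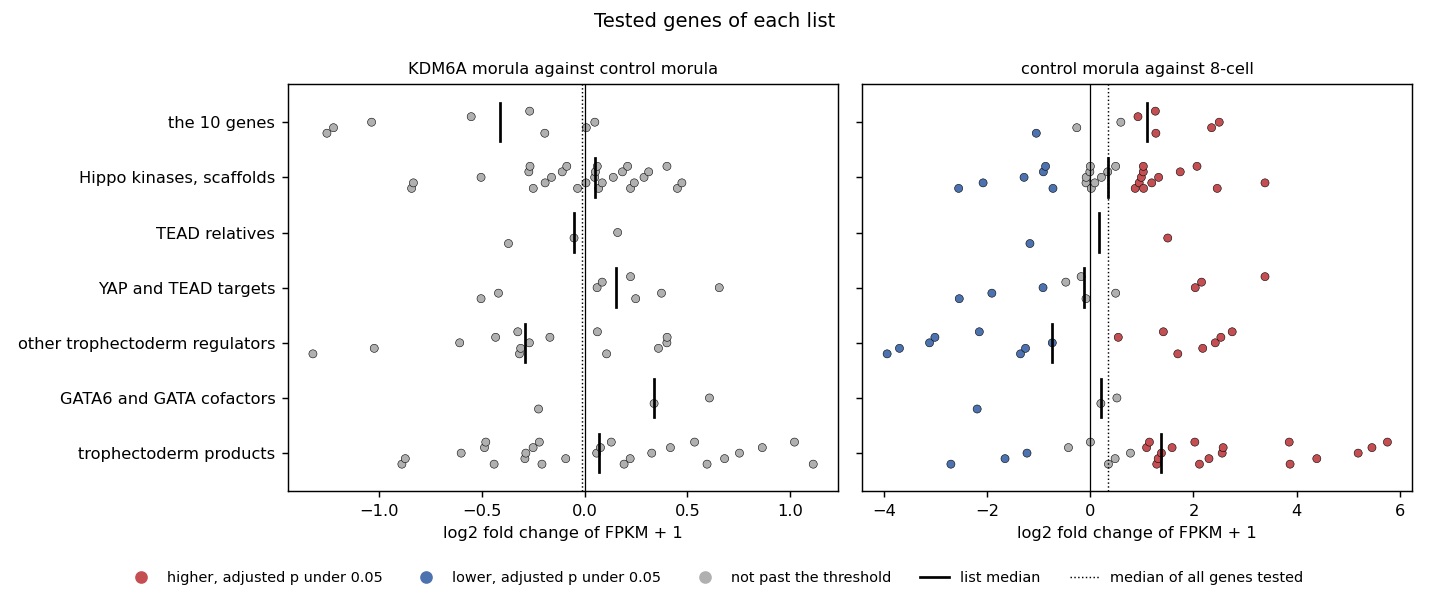
Log2 fold change of each testable gene (points) in the 10 genes described and in the lists of related genes, for KDM6A against control morulae and for control morulae against 8-cell embryos, with list medians as solid lines and the median of all tested genes dotted. Red and blue mark higher and lower calls. In the first comparison the medians run from -0.41 for the 8 testable of the 10 genes, GATA2 included, to 0.34 for the other GATA factors and cofactors, drawn as GATA6 and GATA cofactors. In the stage comparison trophectoderm products stand highest, at 1.38.

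The genes whose profiles over the 9 libraries were most like each of the 8 were found by the root mean square difference of log2(FPKM + 1), centred on each gene's mean, among 9961 genes. The addition of 1 compresses low values on this scale, so a low gene can lie near a high one whose fold differs, and the levels are given. The smallest difference, 0.062, was between TFAP2C and LAMA3, but LAMA3 was at 0.04 ± 0.01 FPKM in KDM6A morulae and 0.0233 ± 0.00577 in control morulae, against 1.08 ± 0.434 in 8-cell embryos. For YAP1 the nearest was SLIRP (0.106), at 588.5 ± 25.4 FPKM in KDM6A morulae and 689 ± 73.5 in control morulae, against 366 ± 46.9 in 8-cell embryos. For TEAD4 it was LAMP1 (0.149), at 12.1 ± 2.82 FPKM in KDM6A morulae and 16.3 ± 1.13 in control morulae, against 2.28 ± 0.566 in 8-cell embryos. All of the nearest 3 profiles of GATA2 and GATA3 lay farther off, from 0.235 for AVEN with GATA2 to 0.28 for CFAP126 with GATA3. Neither was among the nearest 3 of the other, and no gene of the 10 was among the nearest 3 of any other.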

How the data were processed

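RNA sequencing of 9 libraries was analysed, 3 each of KDM6A morulae, control morulae and 8-cell embryos. Per the file headers, the authors deposited FPKM per gene, given to 2 decimals. Per the submitters' processing notes, the tools were RSEM 1.2.12, Bowtie2 2.2.5, StringTie 1.0.4, HISAT 0.1.6 and bcl2fastq 2.16, and the build was UMD3.1. The step each tool served was, like the counting of multi-mapping reads, not given in the sources used here. Reads shared by related genes could therefore be split. Depth is unknown, as whole-read steps could not be seen among low values, and no counting interval is given.

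Tests were run with limma 3.58.1 in R 4.3.3 and took log2(FPKM + 1) of the 6 libraries compared, fitting group means and a prior variance with a trend. The test covered genes that reached 1 FPKM in 3 or more of these libraries. Adjustment was by Benjamini-Hochberg over all of them, with a threshold of 0.05. A log2 fold change is on that scale, which understates changes of low genes, and a "-fold" value is a ratio of mean FPKM. The exact permutation test was two-sided. Other steps used Python 3.11.15 with numpy 2.4.6, pandas 2.3.3, scipy 1.17.1 (exact tests) and matplotlib 3.10.9 (figures). The test was checked on simulated data with known changes placed in the more abundant genes alone. This check does not cover low genes such as GATA2.

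The genes and lists were chosen with earlier results of these data known, so list counts and medians are descriptions. All 10 genes are named. For each list and comparison, at most 6 genes were picked by the smallest adjusted p and then the smallest unadjusted p. Further genes are named for other reasons, such as reaching 1 FPKM in a single group, a lost call or a marker sum. LATS2, AMOTL2, AJUBA, PTPN14 and GATA6 stand in more than 1 list. For each gene with a mean of at least 1 FPKM in any group, the 3 nearest profiles were found, and those named are given with their levels. A list gene that reached 1 FPKM in libraries of a single group is given by its values, with no p. As alternatives, the pseudocount was set to 0.1 or 0.5, the filter was dropped or lowered to 0.5 FPKM, and the scale was changed by quantile normalization, by median-of-ratios scaling or to TPM. The fit was also run on all 9 libraries, with array weights, with replicate numbers as blocks, and without each replicate in turn on the same genes. RefSeq coordinates are of another build and are not given. CCN2 was matched to CTGF by RefSeq synonym. A further 3038 rows of the control replicate 1 file, which carry no annotated identifier, were not used.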

Additional observations from a re-analysis of the deposited data

How the results depend on the processing

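Between KDM6A and control morulae 0 of the genes were called, but 2 with quantile normalization, 4 with array weights and 0 to 3 with a replicate left out. GATA2, which entered the test through its control libraries alone, is 1 of the genes in each of these counts above 0. Over all genes 16 were called, 2510 with array weights, 0 without a filter, 1 with the replicate block and 1 to 745 with a replicate left out (745 without KDM6A replicate 1). In control morulae against 8-cell embryos 6 to 8 of the genes were called under the alternatives, and in KDM6A morulae against 8-cell embryos 3 to 6. Without a filter TFAP2A and ELF3 were among them in both. The cause of these differences was not tested.

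Values that turned sign, none of them called, were few. In KDM6A against control morulae TFAP2C was at -0.028 with array weights, and WWTR1 at -0.13 with array weights and -0.12 to 0.096 with a replicate left out. In control morulae against 8-cell embryos TEAD1 ran from -0.76 to 0.028 with a replicate left out. In KDM6A morulae against 8-cell embryos GATA3 was at -0.34 with quantile normalization, -0.14 with median-of-ratios scaling, -0.027 rescaled to TPM and -0.22 to 0.46 with a replicate left out. CCN2 was at -0.020 with quantile normalization and with median-of-ratios scaling.

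The labels do not say that replicate numbers pair the libraries. Deviations of same-numbered libraries correlated at -0.242 to 0.160 in the first comparison and at -0.0867 to 0.0831 in the others. Such correlations cannot show whether libraries were prepared in matched sets. With the replicate block 0, 6 and 3 of the genes were called in the 3 comparisons, the YAP1 call against 8-cell embryos being lost. The share of calls on the higher side in control morulae against 8-cell embryos was 61.2%, and 51.1% with quantile normalization and 52.6% with median-of-ratios scaling. For KDM6A morulae against 8-cell embryos it was 61.6%, 51.0% and 53.1%. Levels under 1 FPKM, as for GATA2 in KDM6A morulae, TFAP2A and ELF3, may rest on few fragments, whose number is unknown. The 3 libraries a group limit every comparison.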
